A study of Mus musculus with 18 samples.

Results

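The interstitial matrix is the collagen-rich scaffold around epithelial ducts and vessels, and its messenger RNA was measured here through 38 genes in primary cholangiocyte preparations from mice. The list held 7 chains of fibril-forming collagens, 7 chains of other collagens, 8 genes of elastic fibres, 6 adhesive and matricellular proteins, 7 proteoglycans and 3 enzymes that crosslink collagen and elastin. All 38 were matched by symbol among the 55401 genes counted. Cholangiocytes form the epithelium of the bile ducts, and the study set PLD mice, a model of polycystic liver disease, against WT mice. The biliary tree was dissected out and digested with enzymes, and cells were pulled out with magnetic beads carrying an antibody to EpCAM, an epithelial surface protein. Polyadenylated RNA was then sequenced in 18 libraries, 3 in each of 6 groups.

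Of these groups, 2 came from PLD mice given a compound, CPTH6 or ML324, and are labelled as 3 months. A further pair of groups came from PLD and WT mice 2 months after tamoxifen, the agent that induces the model, and the last pair came from PLD and WT mice 1 month after tamoxifen. CPTH6 blocks histone acetyltransferases such as Gcn5 and pCAF, and ML324 blocks histone demethylases of the KDM4 family. Both genotypes at 1 and 2 months had received tamoxifen. The labels give the genotype only as PLD or WT, without the allele, the Cre driver, the strain, the sex or the dose of a compound, and they do not say whether the replicates of a group are separate animals. The p-values therefore measure the spread between these libraries, which may be technical. Since the only untreated PLD libraries were made at 1 and 2 months and the compound libraries were constructed apart from them, compound, age and library construction cannot be told apart in any comparison with CPTH6 or ML324.

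Fibril-forming collagens are secreted as procollagens, trimmed and packed side by side into cross-banded fibrils, which other collagens and small leucine-rich proteoglycans coat and space. Elastic fibres consist of a core of crosslinked elastin on a scaffold of fibrillin microfibrils. Both kinds of fibre are fixed by lysyl oxidases, and fibronectin is laid down early as a template on which cells assemble collagen. In liver this matrix is mostly made by mesenchymal cells, namely hepatic stellate cells, portal fibroblasts and the myofibroblasts derived from them, whereas bile duct epithelium makes little of the fibrillar collagens. Fibronectin is also secreted by hepatocytes as a plasma protein.

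Total counts per library ran from 16345740 to 29277311, and values are given as CPM, the counts scaled to a common library total, with TMM normalisation, listed for replicates 1, 2 and 3 of a group in that order. The cell type named in the labels was followed with 15 cholangiocyte markers, among them Krt19, Krt7, Epcam and Sox9. None was at 0 in every library of any group. That also held for the markers of every other cell type, so it does not identify the cells. The cholangiocyte markers summed to 22300 to 27200 CPM with CPTH6, 19100 to 23200 CPM with ML324 and 14600 to 17200 CPM in PLD at 2 months. The sum was 2750 to 5400 CPM in WT at 2 months, 9840 to 13300 CPM in PLD at 1 month and 4050 to 11100 CPM in WT at 1 month. At 2 months the sum was higher in every PLD library than in every WT library. In WT at 2 months 14 endothelial markers summed to 7760 to 14200 CPM, above the cholangiocyte sum, and 10 smooth muscle markers to 4300 to 5220 CPM. Some libraries stood apart for the matrix genes. Replicate 3 of WT at 1 month lay below both other replicates for 37 of the 38 genes, with a median ratio of 0.165 to their mean, and replicate 2 of ML324 lay above both others for 33 genes, with a median ratio of 2.88. The same WT library had the highest cholangiocyte marker sum and the lowest stellate cell marker sum of its group, and the same ML324 library had the lowest cholangiocyte and the highest stellate cell marker sum of its group. Both libraries were kept. Counts of matrix genes called without them are given beside those that rest on them, whereas shares, ranks, ratios and marker results include them.

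The 38 genes together took 0.491 ± 0.037% of all CPM with CPTH6, 0.521 ± 0.043% with ML324, 1.44 ± 0.42% in PLD at 2 months, 2.16 ± 0.73% in WT at 2 months, 2.76 ± 0.36% in PLD at 1 month and 2.81 ± 1.73% in WT at 1 month (SD, n = 3 each). The share differed in make-up as well as in size. Fn1, fibronectin, gave 47.3 ± 1.4% of the summed CPM of the 38 genes with CPTH6 and 43.9 ± 11.8% with ML324, against 15.7 ± 0.7% in PLD at 2 months. In WT at 2 months it gave 4.54 ± 1.07%. The fibril-forming collagens gave 4.72 to 6.70% with CPTH6 and 5.10 to 11.9% with ML324, against 18.6 to 37.3% in PLD at 2 months. Levels per kilobase of exon allow only a rough comparison between genes, because the length counts all annotated exons of a gene and not 1 transcript. By that measure Sparc ranked first in all 4 untreated groups, at 226 CPM per kb in PLD and 456 CPM per kb in WT at 2 months. Fn1 ranked first with CPTH6 and with ML324, at 199 and 194 CPM per kb. Col11a1 ranked last in all 6 groups, at 0.00635 to 0.135 CPM per kb.

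**Figure D1:**
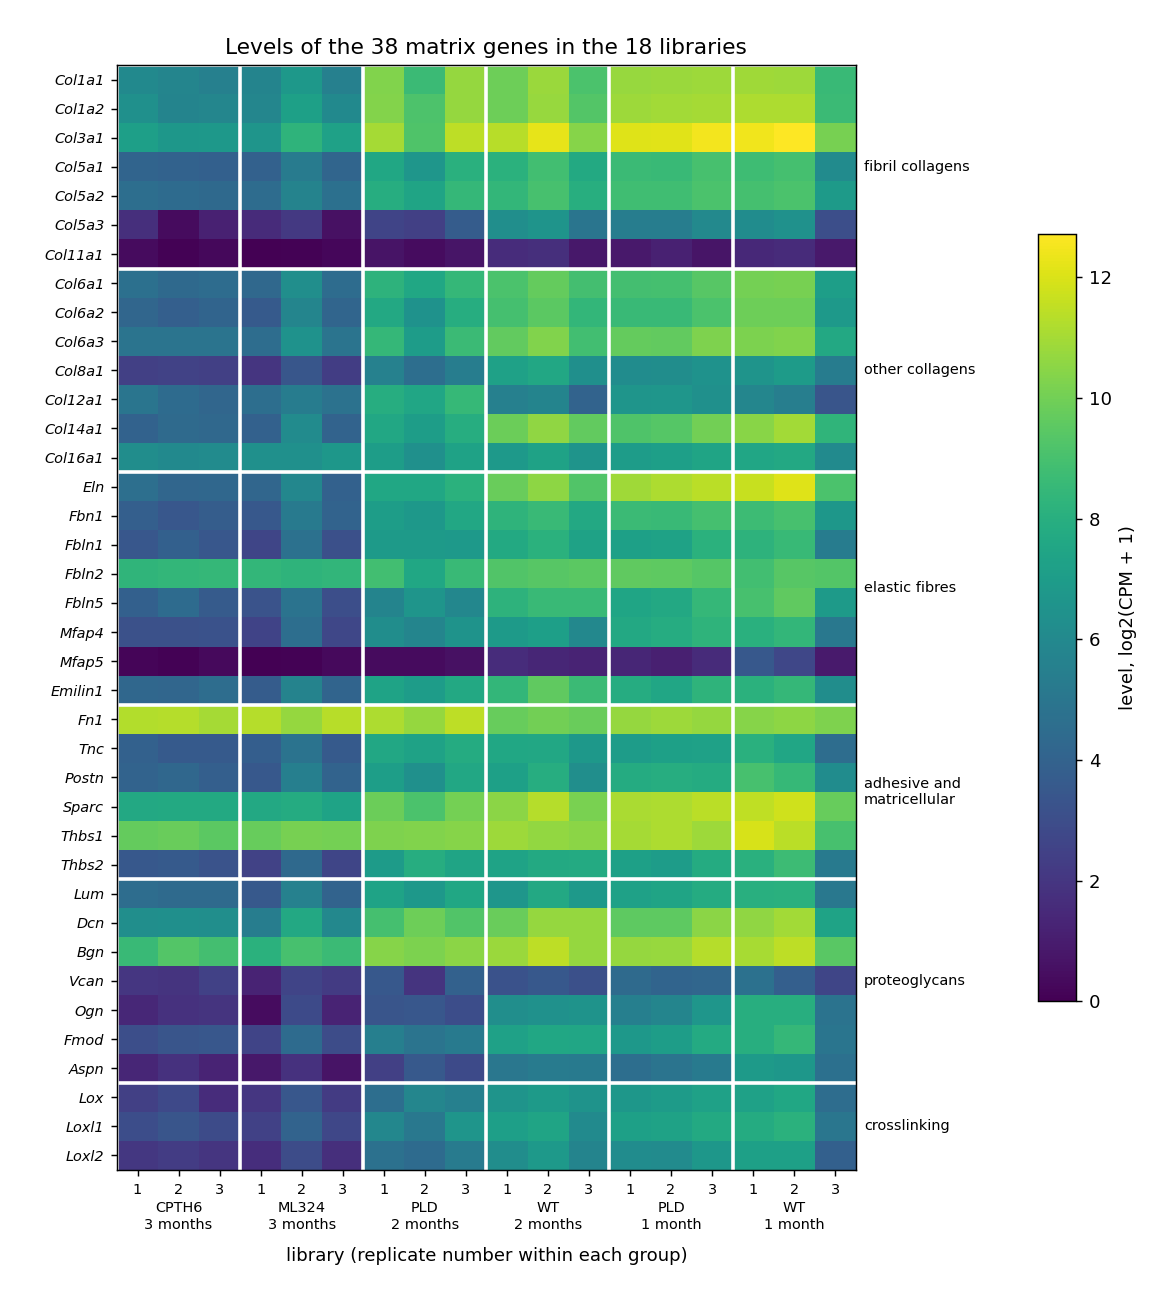
Level of each of the 38 matrix genes (rows, ordered by role) in each of the 18 libraries (columns, 3 replicates per group), as log2(CPM + 1). The columns of CPTH6 and ML324 are dark for nearly every gene apart from Fn1, Fbln2, Thbs1 and Bgn, and replicate 3 of WT at 1 month and replicate 2 of PLD at 2 months are darker than their neighbours.

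The sequences just before the RefSeq start of 6 of these genes are shown because the genes stand for the different patterns described below: Col1a2 and Col3a1 for the fibril collagens, Ogn and Aspn for proteoglycan genes on the same chromosome that were lower in PLD, and Fbln2 and Col16a1 for genes with little difference under ML324. RefSeq promoters on GRCm38.p6 were at hand for 24 of the 38 genes, and the 250 bases before the RefSeq start were taken, on the plus strand for all 6. The windows of Col1a2 and Fbln2 lie inside the genes as counted, which begin further upstream in GENCODE M25. Capitals mark matches, on either strand, to 4 motifs: the TATA box TATAAA, the CCAAT box CCAAT, the GC box GGGCGG and the AP-1 site TGANTCA. A match on the opposite strand is printed as its reverse complement, and where matches on both strands overlap the run of capitals is longer. The stretches lie at chr6:4505368-4505617, chr1:45311288-45311537, chr13:49607765-49608014, chr13:49544193-49544442, chr6:91212514-91212763 and chr4:130047590-130047839, in the order printed.
Col1a2: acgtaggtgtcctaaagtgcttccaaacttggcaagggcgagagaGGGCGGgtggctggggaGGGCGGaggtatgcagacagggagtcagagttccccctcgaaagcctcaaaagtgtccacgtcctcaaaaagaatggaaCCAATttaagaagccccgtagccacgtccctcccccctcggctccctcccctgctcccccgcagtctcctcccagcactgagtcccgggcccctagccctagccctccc
Col3a1: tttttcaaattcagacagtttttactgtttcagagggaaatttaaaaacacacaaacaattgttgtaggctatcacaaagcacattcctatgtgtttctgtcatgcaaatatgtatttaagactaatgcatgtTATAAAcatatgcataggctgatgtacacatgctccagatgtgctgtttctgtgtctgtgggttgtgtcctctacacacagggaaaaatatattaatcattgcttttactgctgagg
Ogn: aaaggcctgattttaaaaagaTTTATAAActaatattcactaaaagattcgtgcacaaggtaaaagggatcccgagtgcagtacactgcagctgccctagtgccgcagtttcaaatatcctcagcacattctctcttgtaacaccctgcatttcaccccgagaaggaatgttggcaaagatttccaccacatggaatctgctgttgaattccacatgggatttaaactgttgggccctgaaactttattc
Aspn: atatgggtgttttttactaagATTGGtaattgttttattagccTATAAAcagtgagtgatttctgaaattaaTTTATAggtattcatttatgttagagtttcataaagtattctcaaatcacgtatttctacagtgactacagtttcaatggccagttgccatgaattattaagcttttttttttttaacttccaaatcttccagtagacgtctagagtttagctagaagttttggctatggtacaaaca
Fbln2: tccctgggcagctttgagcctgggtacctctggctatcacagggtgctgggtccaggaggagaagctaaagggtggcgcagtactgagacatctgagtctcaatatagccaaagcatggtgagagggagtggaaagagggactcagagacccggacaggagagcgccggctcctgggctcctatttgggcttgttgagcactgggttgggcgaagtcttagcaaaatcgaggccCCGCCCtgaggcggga
Col16a1: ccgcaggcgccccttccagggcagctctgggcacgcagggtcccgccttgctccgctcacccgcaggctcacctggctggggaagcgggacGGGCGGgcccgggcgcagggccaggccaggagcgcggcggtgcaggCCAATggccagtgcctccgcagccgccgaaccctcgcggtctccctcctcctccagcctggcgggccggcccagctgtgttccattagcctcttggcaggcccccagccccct

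Col3a1, Ogn and Aspn hold a TATA box match in this window and are poor in G and C, with 35.2%, 42.0% and 30.0% GC, whereas Col1a2, Fbln2 and Col16a1 hold at least 1 GC box match, no TATA box match and 62.0%, 58.8% and 75.6% GC. The fibril collagens Col1a2 and Col3a1 thus differ from each other in this window. The TATA box letters were found in 6 of the 24 genes and in 12.4% of all 32851 promoters of that length. The GC box letters were found in 14 of the 24 genes and in 32.7% of all promoters, the CCAAT letters in 8 and 33.8%, and the AP-1 letters in 1 and 6.75%. A match is a description of the letters and not a mapped site. Aspn and Ogn lie on chromosome 13 with 40.5 kb between them.

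The first comparison asks how the matrix genes differ between PLD and WT cholangiocyte preparations at 2 months. Of the 38 genes, 2 were higher in PLD, Col12a1 and Fn1, and 12 were lower: Ogn, Col5a3, Col14a1, Fbln5, Aspn, Fmod, Eln, Mfap5, Col8a1, Col11a1, Emilin1 and Fbln2 (edgeR, adjusted p under 0.05 over 17749 genes). Among all genes tested, 19.7% were called higher, 20.3% lower and 40% either way, so 14 matrix genes called in either direction is close to the background share and is not a result about them by itself. Higher calls were fewer and lower calls more frequent among them than among all genes, a description without a test. The main chains of types I and III collagen were not among the genes called. The median log2 fold change of the 38 genes was -1.05, against -0.03 for all genes, and the groups did not overlap, with PLD lower, for 22 of the 38 genes and for 27% of all genes, and with PLD higher for 2 of the 38 and for 27.9% of all genes. In these bulk samples, fewer cells of a type and less RNA per cell cannot be told apart.

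**Figure D2:**
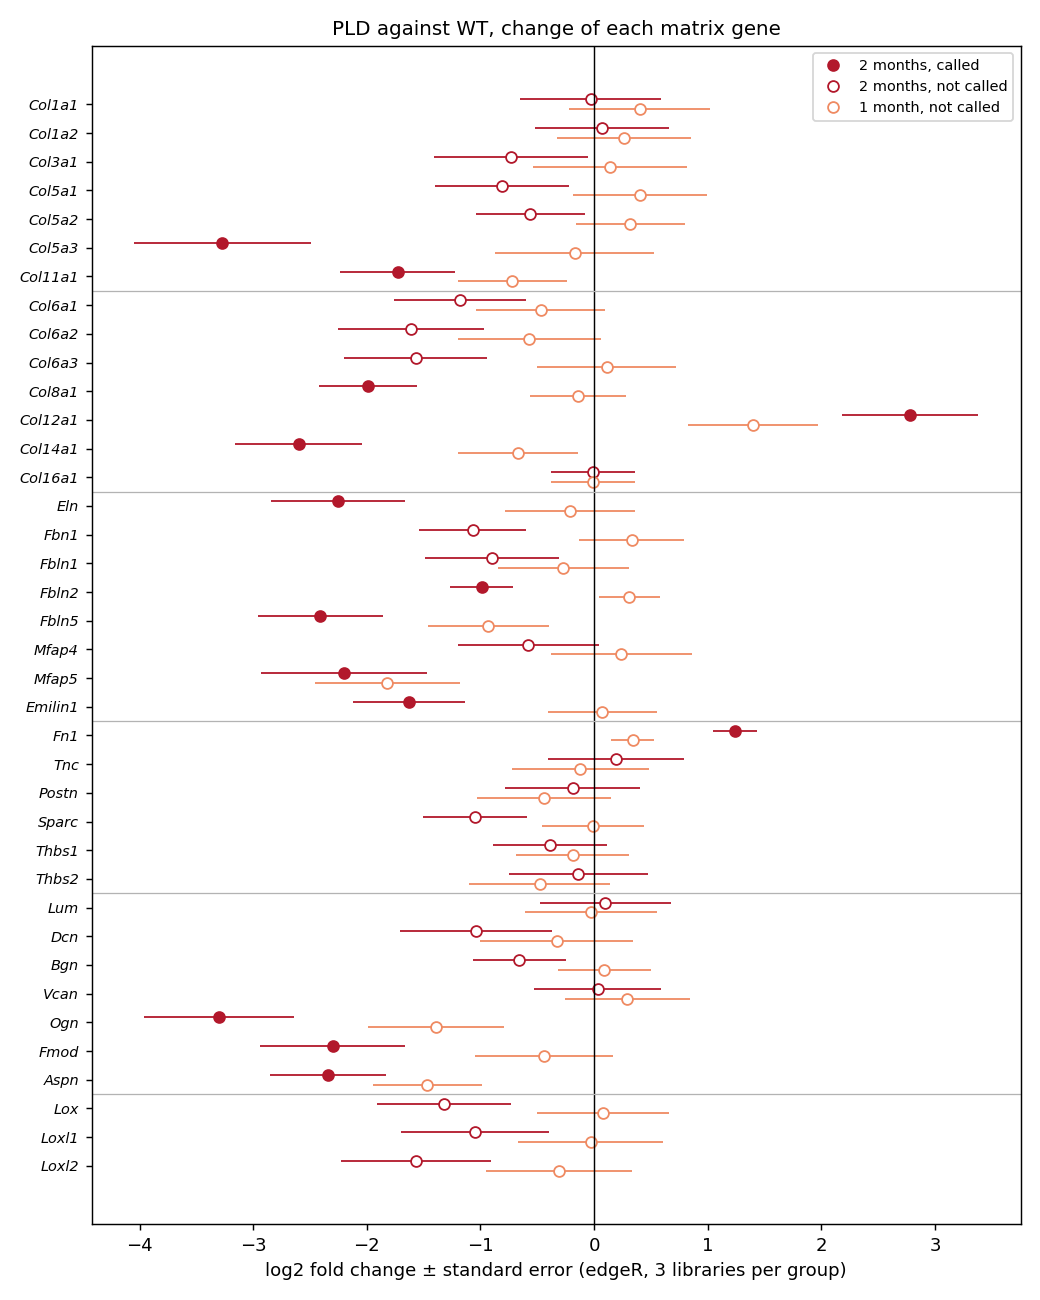
Log2 fold change of PLD over WT (x axis, with its standard error from edgeR) for each of the 38 genes (y axis, ordered by role), at 2 months (dark) and at 1 month (light), with filled points where the gene was called. At 2 months Col12a1 and Fn1 lie right of 0 and 12 called genes lie left of it, and at 1 month no point is filled.

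Among the fibril-forming collagens, 2 of 7 were lower in PLD at 2 months and the others passed no test. That count is near the 20.3% of all genes called lower. Col1a1, the alpha1 chain of type I collagen and the main chain of interstitial fibrils, had 1282, 406 and 1678 CPM in PLD and 970.3, 1823 and 548 CPM in WT. The PLD and WT libraries overlapped widely, and the log2 fold change was -0.03 ± 0.62, adjusted p = 0.978. Col1a2, its partner chain, had 1317, 578 and 1705 CPM in PLD and 961, 1755 and 630.2 CPM in WT, with the same overlap (0.07 ± 0.59, adjusted p = 0.937). Col3a1, the type III chain found in the same fibrils of distensible tissue, had 2064, 602 and 2799 CPM in PLD and 2601, 4866 and 1377 CPM in WT. Its groups overlapped too, with the lowest library in PLD (-0.73 ± 0.68, adjusted p = 0.417). Col5a1 and Col5a2, the type V chains that start fibrils and limit their width, had 189, 103 and 273 CPM and 246, 171 and 360.2 CPM in PLD, against 279.6, 476 and 212 CPM and 348, 526 and 247 CPM in WT. Neither separated the groups, with log2 fold changes of -0.81 ± 0.59, adjusted p = 0.294 for Col5a1 and -0.56 ± 0.48, adjusted p = 0.376 for Col5a2. Col5a3, the third type V chain, had 5.07, 4.36 and 11.96 CPM in PLD and 76.7, 94.5 and 30.01 CPM in WT. All 3 PLD libraries lay below all 3 WT libraries, and the gene was lower in PLD (-3.27 ± 0.78, adjusted p = 0.00751). Col11a1, a chain of the type XI collagen best known from cartilage, was barely expressed, with 0.583, 0.363 and 0.643 CPM in PLD and 2.07, 2.33 and 0.759 CPM in WT. It was called lower in PLD (-1.73 ± 0.51, adjusted p = 0.02), on 7 to 13 counts per library in PLD and 15 to 54 in WT, and the call was lost without any 1 of 4 libraries, namely replicates 1 and 2 of PLD and replicates 1 and 2 of WT at 2 months, with adjusted p from 0.054 to 0.0743.

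Of the 7 other collagens, 1 was higher and 2 were lower in PLD at 2 months. Both counts are near the shares of all genes, 19.7% higher and 20.3% lower. Col12a1 (chromosome 9, 79598991 to 79718831, minus strand, mm10), the chain of type XII collagen, which sits on the surface of type I fibrils, had 246, 185 and 364 CPM in PLD and 44.8, 52.2 and 15.7 CPM in WT. Every PLD library lay above every WT library (2.78 ± 0.60, adjusted p = 0.00443). Col14a1 (chromosome 15, 55307750 to 55520803, plus strand), the chain of type XIV collagen, a fibril-associated collagen of the same family, had 195, 132 and 239 CPM in PLD and 948, 1579 and 819 CPM in WT. Here every PLD library lay below every WT library (-2.60 ± 0.56, adjusted p = 0.00447). The ratio of Col12a1 to Col14a1 was 1.39 ± 0.13 in the PLD libraries and 0.0332 ± 0.0141 in the WT libraries (SD, n = 3 each), a measure chosen after the values were seen and given without a test. Col8a1, a short-chain collagen of vessel walls, had 47.7, 23.3 and 40.8 CPM in PLD and 154, 197 and 80.5 CPM in WT, without overlap (-1.99 ± 0.43, adjusted p = 0.00461). Col6a1, Col6a2 and Col6a3 form the beaded filaments of type VI collagen that link cells to the fibrils. Col6a1 had 303, 188 and 353 CPM in PLD and 556, 829 and 491 CPM in WT. Col6a2 had 202, 87.4 and 244 CPM in PLD and 506, 732 and 348 CPM in WT. Col6a3 had 350.2, 129 and 404 CPM in PLD and 816, 1267 and 469 CPM in WT. All 3 had every PLD library below every WT library without passing the test, with log2 fold changes of -1.18 ± 0.58, adjusted p = 0.124, -1.61 ± 0.64, adjusted p = 0.0671 and -1.57 ± 0.63, adjusted p = 0.0672 in the same order. Col16a1, a further fibril-associated collagen, had 135, 82.4 and 159 CPM in PLD and 115, 159.5 and 95.5 CPM in WT, which overlapped fully (-0.01 ± 0.37, adjusted p = 0.991, 95% interval -0.82 to 0.81).

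Of the 8 elastic fibre genes, 5 were lower in PLD at 2 months and none was higher, against 20.3% and 19.7% of all genes. Eln (chromosome 5, 134702593 to 134747323, minus strand), tropoelastin, had 190.2, 193 and 276 CPM in PLD and 911, 1535 and 626 CPM in WT. The PLD libraries lay below the lowest WT library (-2.25 ± 0.59, adjusted p = 0.0122). Fbln5, a fibulin needed to assemble elastin onto microfibrils, had 52.5, 99.5 and 57.5 CPM in PLD and 301, 398 and 394 CPM in WT, without overlap (-2.41 ± 0.55, adjusted p = 0.00606). Fbln2, a fibulin of basement membranes and vessel walls, had 464, 187 and 388 CPM in PLD and 627, 672 and 726 CPM in WT, also without overlap and with a smaller difference (-0.99 ± 0.28, adjusted p = 0.0155). Emilin1, a glycoprotein at the interface of elastin and microfibrils, had 168, 132 and 206 CPM in PLD and 346, 783 and 407 CPM in WT, with the WT libraries higher and replicate 2 of WT highest (-1.63 ± 0.49, adjusted p = 0.0222). Its call was lost without replicate 1 or 2 of PLD or replicate 2 of WT at 2 months, at adjusted p from 0.0655 to 0.0944. Mfap5, a small microfibril protein, had only 0.291, 0.312 and 0.494 CPM in PLD and 2.03, 1.55 and 1.42 CPM in WT, at 5 to 10 and 28 to 51 counts per library, and was called lower (-2.20 ± 0.73, adjusted p = 0.0333). That call was lost without any 1 of the 6 libraries compared, at adjusted p from 0.0505 to 0.101. Fbn1, fibrillin, the main microfibril protein, had 135, 110.2 and 199 CPM in PLD and 308, 394 and 207 CPM in WT. Fbln1, a fibulin bound to fibronectin and elastin, had 119, 122 and 118 CPM in PLD and 215, 282 and 159.7 CPM in WT. Mfap4, a microfibril protein that binds elastin, had 73.6, 54.6 and 93.1 CPM in PLD and 119.5, 143 and 60.4 CPM in WT. These 3 passed no test, Fbn1 and Fbln1 without overlap and Mfap4 with overlap (-1.07 ± 0.47, adjusted p = 0.0917 for Fbn1, -0.90 ± 0.59, adjusted p = 0.243 for Fbln1 and -0.58 ± 0.62, adjusted p = 0.483 for Mfap4). Of the exon bases of Fbn1, 20.1% are shared with Gm9913, so reads there cannot be told apart and the level of Fbn1 is uncertain to that extent.

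Among the 6 adhesive and matricellular genes only Fn1 was called at 2 months, against 40% of all genes called either way. Fn1 (chromosome 1, 71585520 to 71653200, minus strand), fibronectin, had 2291, 1657 and 2804 CPM in PLD and 858, 1050.3 and 893 CPM in WT. Each PLD library exceeded each WT library (1.24 ± 0.19, adjusted p = 0.000833). The sums of 10 hepatocyte and 15 cholangiocyte markers were higher in PLD as well: the hepatocyte sum was 2420 to 5500 CPM in PLD and 632 to 949 CPM in WT. Of the 10 hepatocyte markers, 4 were called higher and 4 lower, against 19.7% and 20.3% of all genes. Most of their PLD sum was Alb, picked out after the values were seen, at 1477 to 4812 CPM in PLD and 479 to 754 CPM in WT. The part of both marker lists in the Fn1 result was not tested. Sparc, a collagen-binding matricellular protein, had 926, 564 and 1072 CPM in PLD and 1463, 2561 and 1157 CPM in WT. Thbs1, a thrombospondin that activates latent TGF-beta, had 1215, 1273 and 1349.5 CPM in PLD and 1867, 1592 and 1454 CPM in WT. For both, every PLD library lay below every WT library without a call (-1.05 ± 0.46, adjusted p = 0.0912 for Sparc and -0.39 ± 0.50, adjusted p = 0.563 for Thbs1). Thbs2, its relative in fibroblasts, had 126, 246 and 174 CPM in PLD and 166, 211 and 216 CPM in WT. Tnc, tenascin C, a protein of remodelling stroma, had 196, 158 and 229 CPM in PLD and 189.7, 199 and 109 CPM in WT. Postn, periostin, which promotes collagen crosslinking, had 141, 83.5 and 199 CPM in PLD and 148, 245 and 77.8 CPM in WT. The last 3 overlapped between the genotypes, with log2 fold changes of -0.14 ± 0.61, adjusted p = 0.874 for Thbs2, 0.19 ± 0.60, adjusted p = 0.824 for Tnc and -0.19 ± 0.59, adjusted p = 0.821 for Postn.

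The proteoglycans divided by member. Ogn (chromosome 13, 49608046 to 49624501, plus strand), osteoglycin, had 9.32, 9.97 and 7.07 CPM in PLD and 76.8, 84.2 and 93.4 CPM in WT, the lowest log2 fold change of the 38 genes, with every PLD library under every WT library (-3.30 ± 0.66, adjusted p = 0.00299). Aspn (chromosome 13, 49544443 to 49567565, plus strand), asporin, a gene close by, had 4.31, 10.6 and 6.33 CPM in PLD and 32.02, 38.4 and 35.9 CPM in WT, again without overlap (-2.34 ± 0.51, adjusted p = 0.00454). Fmod, fibromodulin, which binds collagen fibrils and their crosslinking sites, had 43.99, 29.3 and 35.8 CPM in PLD and 153, 188 and 184 CPM in WT, without overlap (-2.30 ± 0.64, adjusted p = 0.016). The Fmod call was lost without replicate 2 or 3 of PLD, at adjusted p = 0.0575 and 0.0509 in edgeR. Lum, lumican, a close relative of Fmod, had 165, 107 and 190.4 CPM in PLD and 101, 207 and 113 CPM in WT, which overlapped (0.10 ± 0.58, adjusted p = 0.903). Dcn, decorin, had 504, 971 and 611 CPM in PLD and 898, 1673 and 1669.9 CPM in WT, with overlap (-1.04 ± 0.67, adjusted p = 0.238). Bgn, biglycan, had 1359, 1203 and 1451 CPM in PLD and 1801, 2774 and 1652 CPM in WT, lower in every PLD library without passing the test (-0.66 ± 0.41, adjusted p = 0.219). Vcan, versican, the large hyaluronan-binding proteoglycan, ranged from 2.804 to 14.4 CPM in PLD and from 7.74 to 10.3 CPM in WT (0.03 ± 0.56, adjusted p = 0.974).

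None of the 3 crosslinking enzymes was called at 2 months, against 40% of all genes called either way. Lox, lysyl oxidase, had 22.95, 56.8 and 44.8 CPM in PLD and 94.3, 119 and 92.4 CPM in WT. Loxl1, the relative that acts mainly on elastin, had 57.6, 33.6 and 99.3 CPM in PLD and 144, 173 and 66.6 CPM in WT. Loxl2, a relative that acts on collagens, had 25.4, 20.6 and 38.6 CPM in PLD and 75.3, 118 and 52.5 CPM in WT. Lox and Loxl2 did not overlap between the genotypes and Loxl1 did, with log2 fold changes of -1.32 ± 0.59, adjusted p = 0.0949, -1.05 ± 0.65, adjusted p = 0.22 and -1.57 ± 0.66, adjusted p = 0.0786 in the same order.

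The 12 untreated libraries shared an estimate of the spread, and leaving out 1 library of another group moved the count at 2 months. Without replicate 3 of WT at 1 month, 22 of the 38 genes were lower in PLD at 2 months and the same count, 2, were higher, with a median of -1.04, against 23.8% of all genes lower and 22.7% higher in that fit. The added genes were Col6a1, Col6a2, Col6a3, Fbn1, Fbln1, Dcn, Bgn, Sparc, Lox and Loxl2. Col6a3, for example, was at -1.56 ± 0.42 (adjusted p = 0.0114 in edgeR) without that library and at -1.57 ± 0.63 with it. Col1a1, Col1a2, Col3a1, Lum, Tnc, Postn, Thbs2 and Col16a1 stayed without a call.

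At 1 month the question is whether the genotypes already differed. No matrix gene was called in either direction by edgeR, against 5.03% of all genes (3% higher and 2.02% lower), 4 had an unadjusted p under 0.05 and DESeq2 called 2 lower and 0 higher. Over all 17749 genes DESeq2 called 2477, 1207 of them higher, so its 2 lower calls are not a result about the matrix genes. The median log2 fold change was -0.08, against -0.05 for all genes, and 2 genes had every PLD library above every WT library, against 13.7% of all genes, and 0 had every PLD library below, against 12.7%. Col12a1 was one of them, with 99.6, 102 and 83.4 CPM in PLD and 56.7, 43.1 and 9.29 CPM in WT (1.40 ± 0.57, adjusted p = 0.165). Fn1 was the other, with 1677, 1864 and 1656 CPM in PLD and 1368, 1518 and 1239 CPM in WT (0.34 ± 0.19, adjusted p = 0.303). Those are the genes that were higher in PLD at 2 months.

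The fibril collagens at 1 month were dominated by the spread within WT. Col1a1 had 1758, 1772 and 1858 CPM in PLD and 1891, 1848 and 389 CPM in WT. Col1a2 had 1882, 1964 and 2079 CPM in PLD and 2262, 2325 and 407 CPM in WT. The PLD libraries lay close together, while the third WT library was the lowest of the 6. Col3a1 showed 4367, 4586 and 5789 CPM in PLD and 5664, 6767 and 1095 CPM in WT. Col5a1 showed 401, 393 and 519 CPM in PLD and 433, 504 and 69.9 CPM in WT. Col5a2 showed 450.1, 446 and 554 CPM in PLD and 496, 558 and 119.5 CPM in WT. The third WT library was again the lowest, and the other WT libraries lay near those of PLD. Col5a3 reached 40.8, 41.4 and 62.7 CPM in PLD and 72.4, 85.5 and 7.403 CPM in WT. Col11a1 reached 0.827, 1.24 and 0.623 CPM in PLD and 1.75, 1.93 and 0.823 CPM in WT. Across the 7 chains the log2 fold changes ran from -0.72 to 0.40, with none called.

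Among the other collagens at 1 month, Col6a1 had 490.4, 496 and 675 CPM in PLD and 1087, 1112 and 138 CPM in WT. Col6a2 had 396, 398 and 553 CPM in PLD and 952, 965 and 115 CPM in WT. Col6a3 had 835, 809 and 1213 CPM in PLD and 1201, 1263 and 207 CPM in WT. For these type VI chains the PLD libraries lay between the lowest and the highest WT library. Col8a1 had 72.7, 73.5 and 89.3 CPM in PLD and 95.05, 127 and 40.1 CPM in WT. Col14a1 had 602, 649 and 1051 CPM in PLD and 1414, 1969 and 315 CPM in WT. Col16a1 had 131, 144 and 170.2 CPM in PLD and 187, 201 and 66.8 CPM in WT. All overlapped.

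The elastic fibre genes at 1 month included the highest elastin levels of the study. Eln stood at 1938, 2294 and 2679 CPM in PLD and 3189.5, 4351 and 554 CPM in WT. Fbn1 stood at 402, 389 and 507 CPM in PLD and 416, 522 and 105 CPM in WT. Fbln1 stood at 151, 160.1 and 276 CPM in PLD and 298, 380.3 and 39.3 CPM in WT. In each, the PLD libraries fell inside the wide WT range or near its upper end. Fbln2 stood at 776, 767 and 668 CPM in PLD and 469, 679.5 and 647 CPM in WT. Fbln5 stood at 179, 207 and 352 CPM in PLD and 518, 782 and 121 CPM in WT. Mfap4 stood at 202, 235 and 313 CPM in PLD and 266, 343 and 33.05 CPM in WT. Fbln2 was the gene for which the third WT library did not stand below both others. Mfap5 stood at 1.54, 1.21 and 1.96 CPM in PLD and 10.3, 5.56 and 0.871 CPM in WT, and Emilin1 at 238, 187 and 310.4 CPM in PLD and 279.7, 352 and 74.4 CPM in WT. The log2 fold changes of the 8 genes ran from -1.82 for Mfap5 to 0.33 for Fbn1.

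Of the remaining adhesive genes at 1 month, Sparc was at 2189, 2254 and 2735 CPM in PLD and 2888, 3532 and 883 CPM in WT. Thbs1 was at 2040.3, 2319.9 and 1863 CPM in PLD and 3989, 2672 and 523 CPM in WT. Thbs2 was at 151, 132 and 230.0 CPM in PLD and 272, 416 and 35.6 CPM in WT. For these the first 2 WT libraries were at or above the PLD libraries and the third was below them. Tnc was at 131, 148 and 154 CPM in PLD and 269, 187 and 22.4 CPM in WT, and Postn at 230.0, 245 and 229 CPM in PLD and 521, 373 and 72.3 CPM in WT. Both overlapped. Lox gave 107, 124 and 155 CPM in PLD and 157, 191 and 22.02 CPM in WT. Loxl1 gave 148, 161 and 214 CPM in PLD and 228, 279.6 and 31.4 CPM in WT. Loxl2 gave 72.8, 70.5 and 107 CPM in PLD and 148, 152 and 14.03 CPM in WT. The 3 enzymes overlapped as well, with log2 fold changes from -0.31 to 0.08.

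Among the proteoglycans at 1 month, Ogn had 43.7, 54.2 and 102 CPM in PLD and 249, 254 and 28.2 CPM in WT. Aspn had 23.4, 28.7 and 37.1 CPM in PLD and 121, 105 and 24.6 CPM in WT. Both genes had PLD libraries below the first 2 WT libraries, while the third WT library lay below all PLD libraries for Ogn and among them for Aspn (-1.39 ± 0.60, adjusted p = 0.188 for Ogn and -1.47 ± 0.48, adjusted p = 0.0965 for Aspn). Lum had 153, 170.0 and 227 CPM in PLD and 262, 272 and 33.4 CPM in WT. Dcn had 759, 754 and 1437 CPM in PLD and 1582, 2011 and 164 CPM in WT. Bgn had 1661, 1720.5 and 2531 CPM in PLD and 2114, 2802 and 696 CPM in WT. These 3 overlapped between the genotypes. Fmod had 109, 134 and 218 CPM in PLD and 249, 354 and 29.5 CPM in WT, while Vcan ranged from 16.3 to 20.3 CPM in PLD and from 5.32 to 25.7 CPM in WT.

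The third WT library changed the count at 1 month. Without it, 9 of the 38 genes were lower in PLD and 0 were higher, with a median of -0.52, against 9.08% of all genes lower and 9.74% higher in that fit. The genes were Mfap5 (-2.32), Aspn (-1.90), Ogn (-1.89), Fbln5 (-1.38), Col14a1 (-1.12), Thbs2 (-0.99), Col6a1 (-0.97), Fmod (-0.95) and Thbs1 (-0.66), each given as its log2 fold change, with adjusted p from 0.00187 to 0.0451 in edgeR. In the same fit Mfap5, Aspn, Ogn, Fbln5, Col14a1, Col6a1 and Fmod were also lower in PLD at 2 months, and Thbs1 and Thbs2 were not called. The test of the difference between the 2-month and the 1-month effect called no matrix gene in edgeR, against 5.68% of all genes (2.55% higher and 3.13% lower), with 8 genes at an unadjusted p under 0.05. DESeq2 called 1 matrix gene higher and 3 lower in that test, against 2374 of all 17749 genes, 1257 of them higher. These counts are near or under the share over all genes. Without the third WT library edgeR called 1, Col5a3, lower (-2.57, adjusted p = 0.042), against 3.97% of all genes lower and 3.66% higher. A genotype effect confined to 2 months was therefore not shown for any of the genes by edgeR on all 12 libraries.

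Within PLD, 6 of the 38 genes were lower at 2 months than at 1 month and 0 were higher, against 5.23% of all genes lower, 4.38% higher and 9.61% either way. The groups did not overlap, with 2 months lower, for 29 genes, against 23% of all genes, and with 2 months higher for 2 genes, against 20.5%. Eln was at 190.2, 193 and 276 CPM in PLD at 2 months and 1938, 2294 and 2679 CPM in PLD at 1 month, so that each later library was below each earlier one (-3.38 ± 0.62, adjusted p = 0.0154). Ogn was at 9.32, 9.97 and 7.07 CPM at 2 months and 43.7, 54.2 and 102 CPM at 1 month, also without overlap (-2.92 ± 0.65, adjusted p = 0.0246). The other genes called were Col5a3 (-2.75 ± 0.77, adjusted p = 0.0477), Aspn (-2.05 ± 0.50, adjusted p = 0.0323), Col14a1 (-2.02 ± 0.55, adjusted p = 0.0437) and Fbln2 (-1.08 ± 0.28, adjusted p = 0.0366). None of these 6 calls was kept in every fit with 1 library left out. The count was 0 without replicate 3 of PLD at 2 months or replicate 3 of PLD at 1 month, 1 without replicate 1 of either group, 2 without replicate 2 of either, 3 without any 1 of the WT libraries at 2 months, 4 without replicate 1 of WT at 1 month, 7 without replicate 2 of WT at 1 month and 21 without replicate 3 of WT at 1 month. Calls over all genes, in either direction, moved in these fits as well, from 1706 with every library. They were 274 and 135 without replicate 3 of PLD at 2 months and at 1 month. Without replicate 1 they were 429 and 238, and without replicate 2 they were 599 and 644. They were 1268 to 1339 without any 1 WT library at 2 months. Without replicates 1, 2 and 3 of WT at 1 month they were 1667, 1602 and 3762. In the last of these fits 1 gene, Col12a1, was higher at 2 months (1.48, adjusted p = 0.0198 in edgeR), and 11.2% of all genes were lower and 9.14% higher.

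Within WT, no matrix gene differed between 2 months and 1 month by edgeR or by DESeq2, against 0.0507% of all genes by edgeR (0.0113% higher and 0.0394% lower), with 5 matrix genes at an unadjusted p under 0.05. Over all 17749 genes DESeq2 called 827, 399 of them higher. The groups did not overlap, with 2 months lower, for 1 gene, Fn1, against 9.87% of all genes, and with 2 months higher for 0 genes, against 6.76%. Without replicate 3 of WT at 1 month, 5 were lower at 2 months, namely Mfap5, Eln, Aspn, Ogn and Thbs1, with log2 fold changes of -2.19, -1.83, -1.62, -1.52 and -0.97 and adjusted p from 0.0132 to 0.0334 in edgeR, against 1.72% of all genes lower and 0.378% higher in that fit. Eln, Ogn and Aspn are also among the genes lower at 2 months in PLD. The PLD and WT comparisons over time share no library, but both come from one fit with a shared estimate of the spread. The shared genes are therefore a description and not separate evidence.

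**Figure D3:**
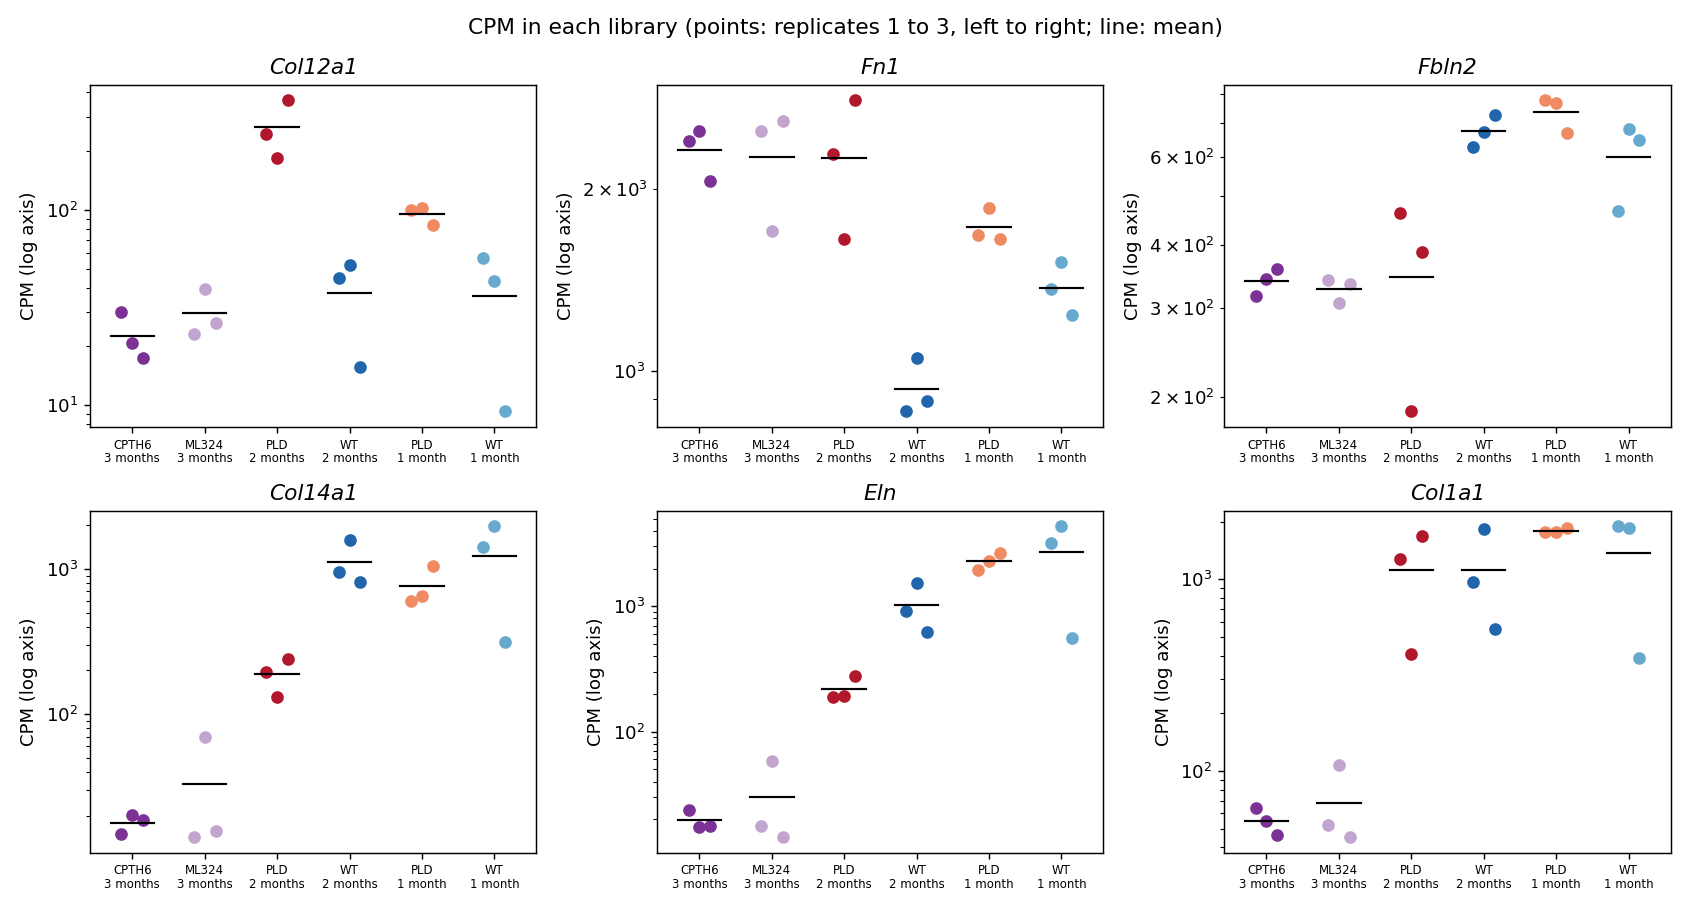
CPM on a log axis in each library (points) with the group mean (line) for Col12a1, Fn1, Fbln2, Col14a1, Eln and Col1a1. Col12a1 is highest in the 3 PLD libraries at 2 months, Fn1 and Fbln2 under the compounds lie within or near the range of PLD at 2 months, and Col14a1, Eln and Col1a1 are lowest under the compounds.

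These groups show how the matrix genes stood in PLD preparations after CPTH6 or ML324. Of the 36 genes that passed the filter on low counts, 32 were lower with CPTH6 and 29 were lower with ML324 than in untreated PLD at 2 months, and 0 were higher with either. Among all 16502 genes tested, 13.7% were called lower with CPTH6 and 11.4% with ML324, and 9.39% and 7.96% were called higher. The median log2 fold change of the 36 genes was -3.20 with CPTH6 and -2.72 with ML324, against -0.04 and -0.01 for all genes. Every CPTH6 library lay below every untreated library for 35 of the 38 genes, and every ML324 library for 34, against 21.1% and 20.4% of all genes. Col11a1 and Mfap5 were at 0 to 7 counts per library under the compounds and were not tested. The 2 comparisons share the untreated libraries, so the values of both compounds are given side by side.

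**Figure D4:**
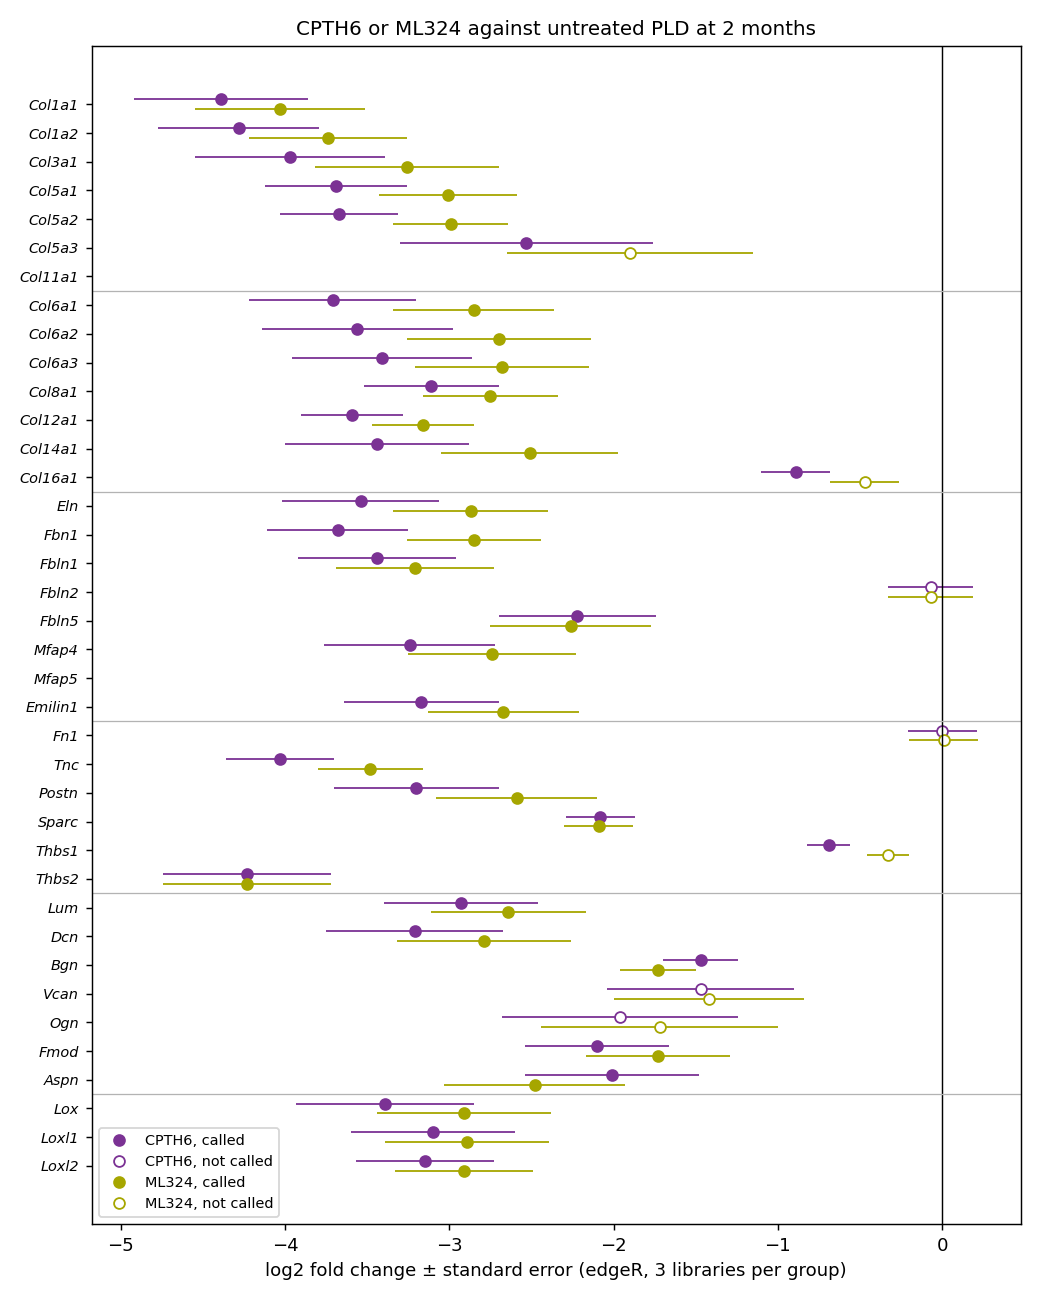
Log2 fold change over untreated PLD at 2 months (x axis, with its standard error from edgeR) for each of the 38 genes (y axis, ordered by role), for CPTH6 and for ML324, with filled points where the gene was called. The lowest point is Col1a1 with CPTH6 at -4.39, Fn1 lies at 0.00 and 0.01 and Fbln2 at -0.07 for both compounds, and Col11a1 and Mfap5 have no point because they were not tested.

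With CPTH6, the chains of type I collagen had the lowest log2 fold changes of the 36 genes. Col1a1 had 64.4, 54.7 and 46.1 CPM with CPTH6 and 51.9, 108 and 45.2 CPM with ML324, against 1282, 406 and 1678 CPM in untreated PLD. Even the highest treated library lay below the lowest untreated one, and the log2 fold changes were -4.39 ± 0.53, adjusted p = 0.000779 with CPTH6 and -4.03 ± 0.52, adjusted p = 0.00142 with ML324. Col1a2 had 81.3, 53.2 and 56.3 CPM with CPTH6 and 55.6, 149 and 63.8 CPM with ML324 (-4.28 ± 0.49, adjusted p = 0.000686 and -3.74 ± 0.48, adjusted p = 0.0014). Col3a1 had 144, 104 and 109.7 CPM with CPTH6 and 96.8, 314 and 157 CPM with ML324 (-3.97 ± 0.58, adjusted p = 0.00182 and -3.26 ± 0.56, adjusted p = 0.0048). In all 3 genes the second ML324 library was the highest of the treated ones. Col5a1 had 16.4, 14.9 and 13.8 CPM with CPTH6 and 14.4, 38.7 and 16.7 CPM with ML324 (-3.69 ± 0.43, adjusted p = 0.000711 and -3.01 ± 0.42, adjusted p = 0.0019). Col5a2 had 23.3, 20.7 and 19.1 CPM with CPTH6 and 21.7, 51.2 and 24.6 CPM with ML324 (-3.67 ± 0.36, adjusted p = 0.000379 and -2.99 ± 0.35, adjusted p = 0.00102). Neither overlapped with the untreated group. Col5a3 had 2.25, 0.283 and 1.27 CPM with CPTH6 and 1.94, 3.29 and 0.485 CPM with ML324, and passed the test with CPTH6 alone (-2.53 ± 0.77, adjusted p = 0.0404 and -1.90 ± 0.75, adjusted p = 0.108), a call that was lost without any 1 of 5 libraries, namely replicates 1 and 3 of untreated PLD, 2 and 3 of CPTH6 and 1 of ML324, at adjusted p from 0.056 to 0.14, with the replicate block (0.0619) and with all 18 libraries in one fit (0.0503). Col11a1 had 0.291, 0.0404 and 0.205 CPM with CPTH6 and 0, 0.0610 and 0.182 CPM with ML324. The ratio of Col1a1 to Col1a2, which pair in type I collagen, was 0.880 ± 0.131 with CPTH6, 0.788 ± 0.126 with ML324 and 0.886 ± 0.160 in untreated PLD (SD, n = 3 each, given without a test).

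All 7 other collagens were lower with CPTH6 and 6 of them with ML324, against 13.7% and 11.4% of all genes. Col12a1, which was high in untreated PLD, had 29.97, 20.7 and 17.3 CPM with CPTH6 and 23.1, 39.5 and 26.4 CPM with ML324, against 246, 185 and 364 CPM in untreated PLD (-3.59 ± 0.31, adjusted p = 0.000333 and -3.16 ± 0.31, adjusted p = 0.000558). The treated libraries lay near the WT values of 15.7 to 52.2 CPM at 2 months, a comparison across groups that was not tested. Col14a1, already low in untreated PLD, had 14.9, 20.2 and 18.7 CPM with CPTH6 and 14.3, 69.8 and 15.7 CPM with ML324 (-3.44 ± 0.56, adjusted p = 0.0028 and -2.51 ± 0.54, adjusted p = 0.0123), so it moved further from the WT values. Col6a1 had 25.2, 19.7 and 21.7 CPM with CPTH6 and 18.7, 77.1 and 21.9 CPM with ML324. Col6a2 had 17.2, 13.4 and 15.96 CPM with CPTH6 and 11.002, 54.4 and 16.5 CPM with ML324. Col6a3 had 28.4, 28.6 and 28.7 CPM with CPTH6 and 22.4, 87.2 and 28.7 CPM with ML324. For the type VI chains the log2 fold changes ran from -3.71 to -3.41 with CPTH6 and from -2.85 to -2.68 with ML324, without overlap and with every adjusted p at or below 0.0102 in edgeR. Col8a1 had 4.37, 4.76 and 4.25 CPM with CPTH6 and 2.96, 9.699 and 4.001 CPM with ML324 (-3.11 ± 0.41, adjusted p = 0.00106 and -2.75 ± 0.41, adjusted p = 0.0025). Col16a1 had the smallest difference of the collagen chains tested, with 75.8, 64.6 and 68.97 CPM with CPTH6 and 84.1, 82.3 and 104 CPM with ML324, against 135, 82.4 and 159 CPM in untreated PLD (-0.89 ± 0.21, adjusted p = 0.0133 and -0.47 ± 0.21, adjusted p = 0.138). The CPTH6 libraries lay below the untreated ones and the ML324 libraries overlapped with them, and the CPTH6 call was lost without replicate 2 of CPTH6 (adjusted p = 0.0625 in edgeR) and with all 18 libraries in one fit (0.062).

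Among the elastic fibre genes, Fbln2 set itself apart. It had 317, 343 and 359 CPM with CPTH6 and 342, 307 and 335 CPM with ML324, against 464, 187 and 388 CPM in untreated PLD. The treated libraries lay inside the untreated range (-0.07 ± 0.26, adjusted p = 0.867, 95% interval -0.65 to 0.50, with CPTH6 and -0.07 ± 0.26, adjusted p = 0.874, 95% interval -0.65 to 0.50, with ML324). The other 6 genes tested were lower with both compounds, against 13.7% of all genes with CPTH6 and 11.4% with ML324. Eln had 23.6, 17.3 and 17.8 CPM with CPTH6 and 17.6, 58.6 and 14.4 CPM with ML324 (-3.54 ± 0.48, adjusted p = 0.00125 and -2.87 ± 0.47, adjusted p = 0.00376). Fbn1 had 13.4, 10.01 and 12.4 CPM with CPTH6 and 10.2, 36.2 and 15.4 CPM with ML324 (-3.68 ± 0.43, adjusted p = 0.000712 and -2.85 ± 0.41, adjusted p = 0.00224). Fbln1 had 10.1, 14.1 and 10.1 CPM with CPTH6 and 5.42, 26.05 and 7.58 CPM with ML324 (-3.44 ± 0.48, adjusted p = 0.00144 and -3.21 ± 0.48, adjusted p = 0.00259). None of these 3 overlapped with untreated PLD. Fbln5 had 14.1, 20.95 and 11.7 CPM with CPTH6 and 8.66, 28.1 and 7.397 CPM with ML324 (-2.22 ± 0.48, adjusted p = 0.0104 and -2.26 ± 0.49, adjusted p = 0.0124). Mfap4 had 8.03, 8.03 and 8.1002 CPM with CPTH6 and 4.85, 22.9 and 5.58 CPM with ML324 (-3.24 ± 0.52, adjusted p = 0.00253 and -2.74 ± 0.51, adjusted p = 0.0064). Emilin1 had 18.2, 17.1 and 22.6 CPM with CPTH6 and 11.9, 51.3 and 16.4 CPM with ML324 (-3.17 ± 0.47, adjusted p = 0.00192 and -2.67 ± 0.46, adjusted p = 0.00483). The groups were again separate, and Mfap5 was at 0.125, 0.0404 and 0.245 CPM with CPTH6 and 0, 0.0610 and 0.243 CPM with ML324.

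Fn1 had the highest level per kilobase of the 38 genes in both compound groups. It had 2407, 2495 and 2067 CPM with CPTH6 and 2493, 1703 and 2590.0 CPM with ML324, against 2291, 1657 and 2804 CPM in untreated PLD. All treated libraries lay inside the untreated range, with log2 fold changes of 0.00 ± 0.21, adjusted p = 0.995 (95% interval -0.48 to 0.48) with CPTH6 and 0.01 ± 0.21, adjusted p = 0.971 (95% interval -0.46 to 0.49) with ML324. Thbs1 had 850.0, 892 and 729.9 CPM with CPTH6 and 862, 1115 and 1080.5 CPM with ML324, all below the untreated 1215, 1273 and 1349.5 CPM, and was called with CPTH6 only (-0.69 ± 0.13, adjusted p = 0.00499 and -0.33 ± 0.13, adjusted p = 0.0993). The CPTH6 call was lost with all 18 libraries in one fit (adjusted p = 0.295 in edgeR). Sparc had 205, 211 and 209 CPM with CPTH6 and 206, 229.6 and 164 CPM with ML324 (-2.08 ± 0.21, adjusted p = 0.000416 and -2.09 ± 0.21, adjusted p = 0.000702). Tnc, Postn and Thbs2 are proteins of remodelling stroma, and all were lower. Tnc had 14.7, 11.2 and 11.1 CPM with CPTH6 and 12.9, 28.2 and 11.3 CPM with ML324 (-4.03 ± 0.33, adjusted p = 0.000333 and -3.48 ± 0.32, adjusted p = 0.000489). Postn had 15.9, 18.2 and 13.5 CPM with CPTH6 and 10.4, 44.7 and 15.5 CPM with ML324 (-3.20 ± 0.50, adjusted p = 0.00243 and -2.59 ± 0.49, adjusted p = 0.00725). Thbs2 had 10.4, 11.3 and 8.47 CPM with CPTH6 and 4.67, 19.3 and 5.34 CPM with ML324 (-4.23 ± 0.51, adjusted p = 0.000776 and -4.23 ± 0.51, adjusted p = 0.00115). The thrombospondins differed in the size of the change, and that difference was not tested. The hepatocyte marker sum was 5050 to 6170 CPM with CPTH6 and 3210 to 4540 CPM with ML324, against 2420 to 5500 CPM in untreated PLD. Of 9 markers tested, 1 was higher and 2 lower with CPTH6, against 9.39% and 13.7% of all genes. With ML324 0 were higher and 3 lower, against 7.96% and 11.4%. Most of the sum was Alb, picked out after the values were seen. Cyp2e1, also picked out then, had 343 to 645 CPM in untreated PLD and 23.9 to 48.6 CPM under the compounds. The part of hepatocyte transcripts in the Fn1 level was not tested.

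Of the 7 proteoglycans, 5 were lower with each compound, against 13.7% of all genes with CPTH6 and 11.4% with ML324. Dcn had 77.9, 78.96 and 77.7 CPM with CPTH6 and 40.4, 203 and 61.4 CPM with ML324, against 504, 971 and 611 CPM in untreated PLD (-3.21 ± 0.54, adjusted p = 0.00316 and -2.79 ± 0.53, adjusted p = 0.00716). Bgn, its close relative, had 392, 629 and 482 CPM with CPTH6 and 278, 522 and 407 CPM with ML324, against 1359, 1203 and 1451 CPM in untreated PLD (-1.47 ± 0.23, adjusted p = 0.00222 and -1.73 ± 0.23, adjusted p = 0.00151). Both were separate from the untreated libraries, and Bgn had rank 3 of the 38 genes per kilobase with either compound and rank 2 in untreated PLD at 2 months. Lum had 22.2, 20.4 and 20.05 CPM with CPTH6 and 10.9, 47.7 and 15.8 CPM with ML324 (-2.93 ± 0.47, adjusted p = 0.00256 and -2.64 ± 0.47, adjusted p = 0.00517). Fmod had 7.45, 9.16 and 9.78 CPM with CPTH6 and 5.07, 21.1 and 6.85 CPM with ML324 (-2.10 ± 0.44, adjusted p = 0.00898 and -1.73 ± 0.44, adjusted p = 0.0238). Aspn had 1.54, 2.54 and 1.43 CPM with CPTH6 and 0.741, 2.501 and 0.606 CPM with ML324 (-2.01 ± 0.53, adjusted p = 0.0236 and -2.48 ± 0.55, adjusted p = 0.0142). The ML324 call of Fmod was lost without replicates 1 or 3 of untreated PLD or of ML324 (adjusted p from 0.056 to 0.0807), with only the libraries compared (0.0629) and with all 18 libraries in one fit (0.0751). That of Aspn was lost without replicate 1 of ML324 (0.0514), and the CPTH6 call of Aspn without replicate 2 of untreated PLD or replicates 1 or 3 of CPTH6 (0.0734 to 0.087). Ogn had 1.66, 2.54 and 2.82 CPM with CPTH6 and 0.342, 6.34 and 1.39 CPM with ML324, against 9.32, 9.97 and 7.07 CPM in untreated PLD, separate but not called (-1.96 ± 0.72, adjusted p = 0.0782 and -1.72 ± 0.72, adjusted p = 0.126). Vcan ranged from 2.705 to 4.46 CPM with CPTH6, from 1.43 to 5.12 CPM with ML324 and from 2.804 to 14.4 CPM in untreated PLD, and was not called (-1.47 ± 0.57, adjusted p = 0.0927 and -1.42 ± 0.58, adjusted p = 0.114).

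The 3 crosslinking enzymes were lower with both compounds, against 13.7% of all genes with CPTH6 and 11.4% with ML324. Lox had 4.25, 6.096 and 2.05 CPM with CPTH6 and 3.08, 9.94 and 3.698 CPM with ML324 (-3.39 ± 0.54, adjusted p = 0.00246 and -2.91 ± 0.53, adjusted p = 0.00591). Loxl1 had 7.16, 9.24 and 6.505 CPM with CPTH6 and 4.56, 15.6 and 5.52 CPM with ML324 (-3.10 ± 0.50, adjusted p = 0.00255 and -2.89 ± 0.50, adjusted p = 0.00462). Loxl2 had 3.205, 3.71 and 2.905 CPM with CPTH6 and 2.17, 6.83 and 2.304 CPM with ML324 (-3.15 ± 0.42, adjusted p = 0.00108 and -2.91 ± 0.42, adjusted p = 0.00215). All were separate from the untreated libraries, whose lowest values were 22.95 CPM for Lox, 33.6 CPM for Loxl1 and 20.6 CPM for Loxl2. Without replicate 2 of ML324, 30 of the 36 genes were lower with ML324 and the median was -3.52, against 11.3% of all genes lower and 6.69% higher in that fit. Ogn was then called (-3.34, adjusted p = 0.00224 in edgeR), and Col5a3, Col16a1, Fn1, Fbln2, Thbs1 and Vcan were not.

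CPTH6 and ML324 were also set against each other. No matrix gene was called in either direction by edgeR or by DESeq2, 2 of the 36 tested had an unadjusted p under 0.05, and 0 of all 15989 genes were called by edgeR, a background of 0%, and 293 by DESeq2. The median log2 difference was -0.42 with all libraries and 0.22 without replicate 2 of ML324, so its sign rested on that library. Col16a1 was the one gene without overlap, lower with CPTH6 (-0.42 ± 0.12, adjusted p = 0.278), against 7.44% of all genes. For Fn1 the 95% interval of the log2 difference was -0.43 to 0.40, for Fbln2 -0.24 to 0.24 and for Sparc -0.29 to 0.31. For Col1a1 it was -1.05 to 0.34 and for Col14a1 -2.21 to 0.34, which leaves room for differences of more than 1 log2 unit. A p that misses the threshold does not show that the compounds act alike.

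Genes that act on the same fibres were followed through lists outside the 38, and their counts at 2 months are read against 19.7% of all genes higher and 20.3% lower. At 2 months 8 of 19 genes for folding and modifying collagen were lower in PLD and 3 were higher, among them the prolyl 3-hydroxylase P3h2 (-1.75 ± 0.26, adjusted p = 0.000597) and the glycosyltransferase Colgalt1 (0.86 ± 0.13, adjusted p = 0.000744), which moved in opposite directions. Of 10 tested genes for trimming procollagen and for other crosslinking, 6 were lower and 0 higher, with Loxl4 at -1.36 ± 0.26, adjusted p = 0.00235 and the procollagen N-proteinase Adamts14 at -2.47 ± 0.61, adjusted p = 0.00878. Of 10 other elastic fibre genes, 4 were higher and 2 lower, the lower count being near the background share. Fbn2, the fibrillin of developing tissue, had 137, 115 and 217 CPM in PLD and 10.5, 10.8 and 9.26 CPM in WT, so each PLD library exceeded each WT library (3.91 ± 0.69, adjusted p = 0.00158), while Fbn1 was not called. Fbn2 was higher at 1 month too, with 199, 211 and 260.0 CPM in PLD and 27.7, 33.1 and 2.37 CPM in WT (3.42 ± 0.67, adjusted p = 0.022). Of 10 collagen receptors and uptake genes, 3 were higher and 3 lower in PLD at 2 months, not far from the background shares. The epithelial collagen receptor Ddr1 (1.43 ± 0.31, adjusted p = 0.00451) and the integrin subunit Itga2 (1.53 ± 0.32, adjusted p = 0.00349) were higher, and the integrin subunit Itga1 (-1.94 ± 0.40, adjusted p = 0.00347) was lower. Of 16 other collagens tested, 1 was higher and 4 lower, the lower count being near the background share. The higher one was Col7a1, the anchoring fibril chain (2.01 ± 0.37, adjusted p = 0.00193), which was higher at 1 month as well (2.40 ± 0.37, adjusted p = 0.00882).

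Under the compounds the counts are read against 13.7% of all genes lower with CPTH6 and 11.4% with ML324, and 9.39% and 7.96% higher. Of 19 folding and modification genes, 8 were lower with CPTH6 and 10 with ML324, led by the collagen chaperone Fkbp10 (-2.83 ± 0.29, adjusted p = 0.000416 and -2.50 ± 0.29, adjusted p = 0.001) and the prolyl 3-hydroxylase P3h3 (-2.13 ± 0.26, adjusted p = 0.000807 and -2.04 ± 0.26, adjusted p = 0.00137). Of 9 trimming and crosslinking genes tested, 8 and 6 were lower, with Loxl3 at -2.92 ± 0.38, adjusted p = 0.000994 and -2.80 ± 0.38, adjusted p = 0.0018. Of 10 other elastic fibre genes, 7 were lower and 1 higher with each compound. Fbn2, high in untreated PLD, had 20.02, 10.3 and 11.05 CPM with CPTH6 and 17.6, 43.98 and 18.98 CPM with ML324 and was lower with both (-3.54 ± 0.42, adjusted p = 0.000776 and -2.54 ± 0.41, adjusted p = 0.00346), the ML324 value being outside the rule for named genes and added after it was seen. Of 10 receptors and uptake genes, 5 were lower with each, among them the uptake receptor Mrc2 (-3.69 ± 0.39, adjusted p = 0.000455 and -3.22 ± 0.38, adjusted p = 0.00104) and the collagen-degrading protease Ctsk (-2.40 ± 0.23, adjusted p = 0.000379 and -2.98 ± 0.24, adjusted p = 0.000391). Col7a1 was lower with both (-2.33 ± 0.35, adjusted p = 0.00204 and -1.40 ± 0.34, adjusted p = 0.0198), as 1 of 3 called among 10 other collagens tested. In each of these counts 0 genes were higher, apart from the elastic fibre list.

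Markers of mesenchymal and vascular cells were followed as well. At 2 months their counts are read against the same shares of all genes, 19.7% higher and 20.3% lower. At 2 months 10 of 14 stellate cell markers were lower in PLD and 0 were higher, and their summed level was 743 to 893 CPM in PLD and 1820 to 3080 CPM in WT. All 10 smooth muscle and myofibroblast markers were lower, with sums of 622 to 702 CPM in PLD and 4300 to 5220 CPM in WT, and all 14 endothelial markers were lower, with sums of 773 to 1660 CPM in PLD and 7760 to 14200 CPM in WT. Acta2, the actin of smooth muscle and myofibroblasts, was at -3.18 ± 0.58, adjusted p = 0.00178. Portal fibroblast markers were mixed, with 3 of 14 higher and 5 lower, and sums of 2870 to 3320 CPM in PLD and 2400 to 3000 CPM in WT. Most of the PLD sum was 1 gene, Gas6, singled out after the values were seen, at 2129.7 to 2329.7 CPM in PLD and 996.4 to 1150.1 CPM in WT (1.02 ± 0.18, adjusted p = 0.00148). Without it the other 13 markers summed to 720.5 to 987.1 CPM in PLD and 1401.9 to 1845.5 CPM in WT. That sum was lower in every PLD library than in every WT library, whereas the sums with Gas6 overlapped. The 13 were mixed too, as 2 genes picked out after the values were seen show. Dpt had 83.4, 71.6 and 83.1 CPM in PLD and 423, 584 and 271 CPM in WT. Thy1 had 134, 93.5 and 168 CPM in PLD and 31.3, 36.5 and 30.2 CPM in WT. Of all 14 markers, 4 lay lower and 4 higher in PLD without overlap, against 27% and 27.9% of all genes. Of the cholangiocyte markers, 11 of 15 were higher in PLD and 0 lower. None of the stellate cell, smooth muscle, endothelial or portal fibroblast markers was at 0 in every library of a group. Of 12 macrophage markers 1 was higher and 3 were lower, near or under the background shares, with sums of 872 to 1840 CPM in PLD and 786 to 1510 CPM in WT. Of 8 mesothelial markers 2 were higher and 6 lower, with sums of 30.0 to 50.0 CPM in PLD and 92.3 to 125 CPM in WT. Between 2 months and 1 month in PLD, 11 endothelial, 7 smooth muscle, 3 stellate cell and 2 portal fibroblast markers were lower, against 5.23% of all genes. At 1 month, 1 smooth muscle marker and 0 stellate cell or endothelial markers were lower in PLD, against 2.02% of all genes. The median log2 fold change at 1 month was -1.74 for smooth muscle and -0.26 for stellate cell markers. It was -0.24 for endothelial and 0.05 for portal fibroblast markers, against -0.08 for the matrix genes. Over time in WT the medians were 1.21 for endothelial and 0.61 for stellate cell markers. They were -0.2 for portal fibroblast and -0.73 for smooth muscle markers, against -0.25 for the matrix genes. The test of the difference between time points called 13 of 14 endothelial and 2 of 14 stellate cell markers lower. It called 0 of 10 smooth muscle and 0 of 14 portal fibroblast markers lower, and 1 portal fibroblast marker higher. Of the 38 matrix genes it called 0, against 3.13% of all genes lower and 2.55% higher. Its medians were -2.91 for endothelial and -1.17 for stellate cell markers. They were -1.19 for smooth muscle and -0.49 for portal fibroblast markers, against -0.88 for the matrix genes. The part of the markers in the matrix results was not tested.

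With CPTH6 13 of 14 stellate cell markers were lower than in untreated PLD, and with ML324 12 were, with 0 higher, against 13.7% and 11.4% of all genes lower. Their sums were 115 to 117 CPM with CPTH6 and 65.2 to 258 CPM with ML324, against 743 to 893 CPM in untreated PLD. Pdgfrb, the receptor that marks stellate cells and other pericytes, had 11.4, 8.48 and 12.7 CPM with CPTH6 and 7.98, 26.9 and 9.82 CPM with ML324, against 133, 157 and 187 CPM in untreated PLD, with the second ML324 library the highest of the treated ones (-3.92 ± 0.42, adjusted p = 0.000492 and -3.42 ± 0.41, adjusted p = 0.00113). Of 13 portal fibroblast markers tested, 9 were lower with each compound, among them Pdgfra (-3.44 ± 0.37, adjusted p = 0.000495 and -2.99 ± 0.36, adjusted p = 0.00116). Their sums were 1870 to 2420 CPM with CPTH6 and 1650 to 2180 CPM with ML324, against 2870 to 3320 CPM in untreated PLD. Gas6 alone was at 1737.5 to 2289.6 CPM with CPTH6 and 1534.0 to 1934.1 CPM with ML324, against 2129.7 to 2329.7 CPM in untreated PLD, and was not called (-0.17 ± 0.14, adjusted p = 0.407 and -0.34 ± 0.14, adjusted p = 0.111). The other 13 markers summed to 129.9 to 135.3 CPM with CPTH6 and 87.05 to 250.03 CPM with ML324, against 720.5 to 987.1 CPM in untreated PLD. Smooth muscle and myofibroblast markers were lower for 9 of 10 with CPTH6 and 5 of 10 with ML324, with sums of 155 to 172 CPM and 108 to 386 CPM, against 622 to 702 CPM in untreated PLD. Of the 14 endothelial markers, 6 were lower with CPTH6 and 3 with ML324, with sums of 227 to 378 CPM and 160 to 759 CPM, against 773 to 1660 CPM in untreated PLD. Macrophage marker sums were 895 to 1190 CPM with CPTH6 and 729 to 855 CPM with ML324, with 6 of 11 tested markers lower with each. Of the 15 cholangiocyte markers, 6 were higher and 1 lower with CPTH6, and 2 were higher with ML324, against 9.39% and 7.96% of all genes higher. The part of these markers in the lower matrix levels was not tested.

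**Figure D5:**
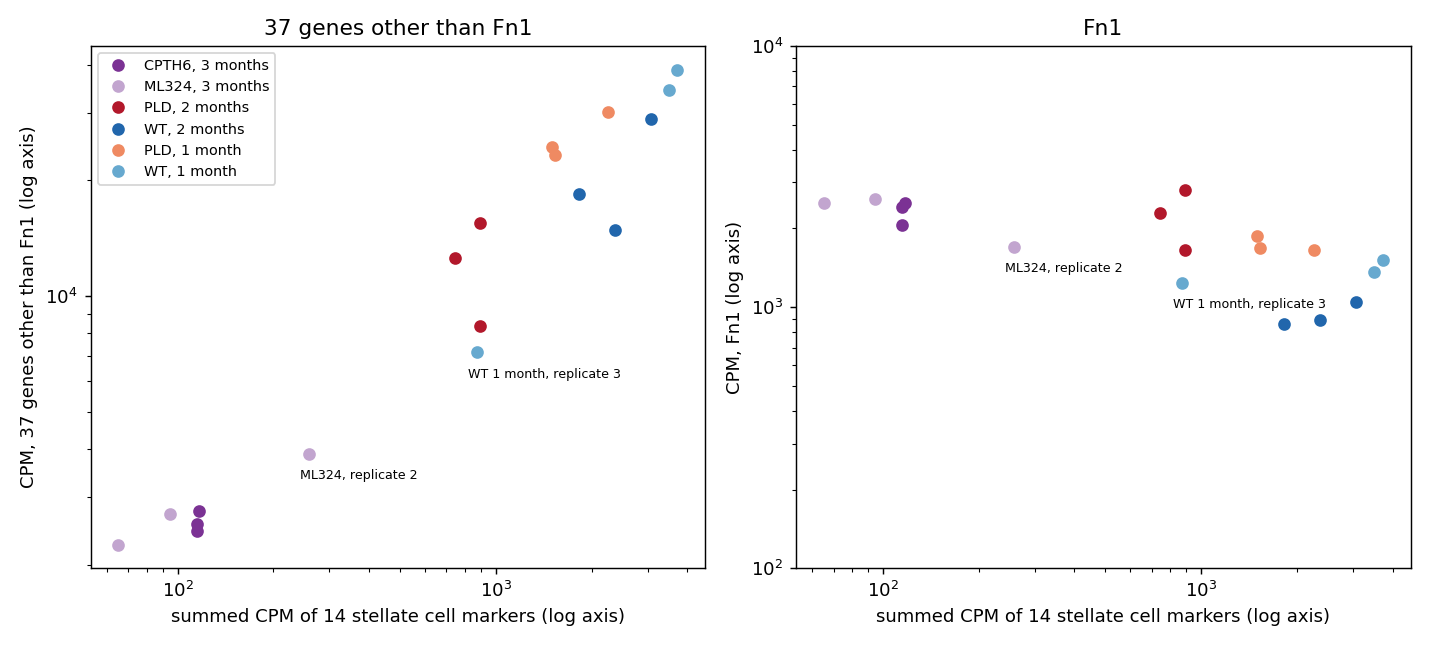
Summed CPM of 14 stellate cell markers (x axis, log) against the summed CPM of the 37 genes other than Fn1 (left) and against the CPM of Fn1 (right), both on log axes, 1 point per library, coloured by group. Libraries with a low marker sum, the 6 compound libraries and replicate 3 of WT at 1 month within its group, have low matrix sums on the left, while on the right the compound libraries have Fn1 levels as high as those of untreated PLD.

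The plot of marker sums places each library by both measures and is a description, since all its points share libraries and scaling. The summed CPM of the 37 genes other than Fn1 was 2450 to 2760 with CPTH6, 2260 to 3890 with ML324, 8360 to 15500 in PLD at 2 months, 14900 to 28800 in WT at 2 months, 23300 to 30100 in PLD at 1 month and 7140 to 38800 in WT at 1 month. Within WT at 1 month the lowest matrix sum came with the lowest stellate cell marker sum, 870 CPM, and within ML324 the highest matrix sum came with the highest marker sum, 258 CPM. In PLD at 2 months the order differed: replicate 2 had the lowest matrix sum and a marker sum of 889 CPM, close to the highest of its group. That library lay below both other PLD libraries for 28 of the 38 genes, with a median ratio of 0.609.

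Ratios between matrix genes of one library do not depend on the library's scaling, and some were set side by side after the values were seen, without a test. Col3a1 to Col1a1 was 1.48 to 1.67 in PLD and 2.51 to 2.68 in WT at 2 months. Eln to Col1a1 was 0.148 to 0.476 in PLD and 0.842 to 1.14 in WT, and Ogn to Lum was 0.0371 to 0.0928 in PLD and 0.407 to 0.828 in WT. Col1a1 to Col1a2 was 0.702 to 0.984 in PLD and 0.869 to 1.04 in WT, which overlapped. The first 3 ratios did not overlap between the genotypes.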

How the data were processed

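Polyadenylated RNA of 18 mouse cholangiocyte libraries was analysed, 3 in each of 6 groups taken from the labels. The deposited files hold 1 column of raw read counts per gene, which the authors made with featureCounts 1.6.0 after alignment with STAR 2.7.4a, per the submitters' processing notes, which also name SAMtools 1.12, DESeq2 1.26.0 and the mm10 build. Read pairs were counted without regard to strand against GENCODE M25, per the file headers, so overlapping genes on opposite strands cannot be told apart. The deposited exon length per gene was used for levels per kilobase. Counting error is small at these depths for most members, and the spread between libraries limits the precision.

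Counts were filtered on low values (filterByExpr), scaled by TMM and tested across all genes with edgeR 4.0.16 in R 4.3.3 (quasi-likelihood test, Benjamini-Hochberg adjustment, threshold 0.05, limma 3.58.1 loaded). The 5 contrasts of genotype and time were fitted on the 12 untreated libraries, the contrasts of each compound with untreated PLD on 9 libraries, and the contrast between compounds on 6. Errors of fold changes are standard errors. Alternatives were DESeq2 1.42.0, RLE scaling, no filter, only the libraries compared, all 18 libraries in one fit, a replicate block and each library left out. Leaving out 2 WT libraries together was added after the data were seen. The scripts were tested on simulated counts. No pair of replicates agreed within sampling noise.

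The members, the other matrix lists and the marker lists were chosen with earlier results of these data known. All 38 members could be named. Library values are given for members called between PLD and WT at 2 months or with a group mean of at least 100 CPM, and up to 4 genes of every other list were named per comparison, those with the smallest adjusted p. Genes named outside this rule are marked as picked after the values were seen.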

Additional observations from a re-analysis of the deposited data

How the results depend on the processing

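Of the lower calls under the compounds, 29 of 32 with CPTH6 and 27 of 29 with ML324 were kept in every fit with 1 library left out, whose counts of lower genes ran from 30 to 33 and from 27 to 31. At 2 months 10 of 14 calls were kept, and the counts ran from 8 to 22 lower and stayed at 2 higher. The counts over time in PLD ran from 0 to 21 lower and 0 to 1 higher, those at 1 month from 0 to 9 lower, those over time in WT from 0 to 5 lower, and those of the difference between time points from 0 to 1 in each direction. Calls over all genes in the same fits ran from 2490 to 3975 with CPTH6 and from 1939 to 3081 with ML324. They ran from 5324 to 8622 at 2 months, 99 to 3485 at 1 month and 135 to 3762 over time in PLD. Over time in WT they ran from 0 to 389, and for the difference from 100 to 1413. No named gene changed sign among called values under any alternative run.

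DESeq2 gave 2 lower genes at 1 month, 14 lower and 1 higher over time in PLD, and 3 lower and 1 higher for the difference between time points. Over all 17749 genes it called 2477, 3493 and 2374 in the same order. Without a filter on low counts, edgeR gave 4 lower and 1 higher at 1 month, 23 lower at 2 months, 23 lower and 1 higher over time in PLD, 6 lower and 1 higher over time in WT, and 12 lower and 1 higher for the difference. Over all 45191 genes it then called 2194 at 1 month, 6642 at 2 months and 2818 over time in PLD. It called 1224 over time in WT and 2282 for the difference. With only the libraries compared, 22 were lower at 2 months, and 22 lower and 1 higher over time in PLD. Over all genes 7359 of 16750 were then called at 2 months and 3811 of 16176 over time in PLD. With all 18 libraries in one fit, 10 were lower over time in PLD and 1 for the difference, against 2552 and 1561 of all 18364 genes called. Without replicate 3 of WT at 1 month and replicate 1 of WT at 2 months together, 7 were lower at 1 month, 22 at 2 months, 20 over time in PLD, with 1 higher, and 2 over time in WT. Over all 17894 genes 3541, 7725, 3861 and 184 were called in that fit, in the same order. The cause of these shifts was not tested.

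The replicate numbers were not taken to pair the libraries, since in no comparison was every correlation of same-numbered deviations over 0.1: they ran from -0.225 to 0.25 over all comparisons, and from 0.082 to 0.194 over time in WT. With the replicate block 2 genes were lower over time in PLD, against 965 of all 17749 genes called. The calls of Mfap5 at 2 months (adjusted p = 0.0525) and of Col5a3 with CPTH6 (0.0619) were lost in edgeR with that block. With all 18 libraries in one fit the CPTH6 calls of Thbs1 (0.295), Col16a1 (0.062) and Col5a3 (0.0503) and the ML324 call of Fmod (0.0751) were lost, the last also with only the libraries compared (0.0629). Over all genes, DESeq2 called 2477 at 1 month against 892 by edgeR, 3493 against 1706 over time in PLD, 827 against 9 over time in WT and 2374 against 1008 for the difference. Col11a1 and Mfap5, with 0 to 7 counts per library under the compounds, are limited by depth.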
